A study of Mus musculus with 24 samples.

Results

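The regions described here are H3K27ac peaks of vehicle-treated female mice that were missing 4 days after the last weekly prednisone injection and present again 2 or 4 days later. They were chosen by the peak calls themselves: an autosomal peak of the female vehicle list was taken if no female day 4 peak overlapped it by 1 bp and if a peak of the female day 6 or day 8 list did. Of 37614 autosomal female vehicle peaks, 23583 (62.7%) had no day 4 peak and 3661 (9.73%, 95% Wilson interval 9.44 to 10%) met the whole rule. These 3661 lost and restored peaks are 15.5% (15.1 to 16%) of the peaks absent at day 4. The other absent peaks, 19922, were in none of the female lists at days 4, 6 and 8, and 14031 vehicle peaks were still called at day 4. "Lost" and "restored" stand here for absence from and presence in a list of called peaks. Since the calls of the 4 female lists define the regions, their values in those lists are given as a description.

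The mice were male and female C57BL/6J animals from The Jackson Laboratory, 10 weeks of age at the start of treatment and without any transgene. Weekly prednisone was 1 mg/kg given intraperitoneally on 1 day, with DMSO vehicle in PBS on the 6 following days, for 5 prednisone injections. Vehicle mice received DMSO in PBS every day. Quadriceps were taken on day 4, 6 or 8 after the last prednisone injection, fibers were freed with collagenase II and filtered, and each of the 8 groups gave 2 H3K27ac libraries and 1 input library but a single peak list. No list separates the replicates, so nothing below could be tested against replicate error, and the intervals cover counting error only. The depth behind the female lists, recovered from the steps of their normalized tag counts, was 27.5 M tags for vehicle, 49.0 M for day 4, 30.6 M for day 6 and 39.7 M for day 8, and the lists held 38861, 67503, 123249 and 81696 peaks. Male depths ran from 7.52 M tags at day 4 to 50.5 M at day 6.

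Acetylation of lysine 27 of histone H3 is laid down by CBP and p300 and marks promoters and enhancers that are in use. Far from starts it is the usual mark of an active enhancer, and it is removed by histone deacetylases when the element falls silent. Glucocorticoids such as prednisone bind the glucocorticoid receptor, a nuclear receptor that binds palindromic elements and recruits acetyltransferases at some sites and deacetylases at others. In muscle, enhancers near contractile and metabolic genes carry E boxes for MyoD-family factors and elements for MEF2.

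The 5 stretches printed first belong to regions that the rule for named regions put first, which leaves out those with 50% or more of repeat-masked bases, and are not the highest scores of all. The first 3 are the central 300 bases of the highest-scoring of these called at both day 6 and day 8, read from the plus strand of mm10. The last 2 are the RefSeq promoters (GRCm38.p6, 250 bases before to 50 after the start, on the minus strand of the genome) of the highest-scoring of these that span a start, of which all but 1 base (Sema4d) and 68 bases (Zfp738) lie inside the restored peak. Capitals mark matches on either strand to the letters ACANNNTGT (glucocorticoid receptor spacing), CAGCTG (an E box), TGANTCA (AP-1 family) or TGACCTTGA (nuclear receptor half-site) or to the MEF2 consensus. They lie at chr1:88232594-88232893 (intron of Mroh2a), chr11:60699164-60699463 (before the start of Llgl1), chr1:88263218-88263517 (exon of Hjurp), chr13:51756634-51756933 (start of Sema4d) and chr13:67683463-67683762 (start of Zfp738). The capitals in the Zfp738 promoter lie outside the called region.
Mroh2a: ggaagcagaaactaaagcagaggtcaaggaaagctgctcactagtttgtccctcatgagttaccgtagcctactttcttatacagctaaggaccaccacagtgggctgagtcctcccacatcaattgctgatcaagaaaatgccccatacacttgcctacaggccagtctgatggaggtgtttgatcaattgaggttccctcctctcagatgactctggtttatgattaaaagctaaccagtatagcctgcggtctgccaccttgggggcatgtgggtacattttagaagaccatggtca
Llgl1: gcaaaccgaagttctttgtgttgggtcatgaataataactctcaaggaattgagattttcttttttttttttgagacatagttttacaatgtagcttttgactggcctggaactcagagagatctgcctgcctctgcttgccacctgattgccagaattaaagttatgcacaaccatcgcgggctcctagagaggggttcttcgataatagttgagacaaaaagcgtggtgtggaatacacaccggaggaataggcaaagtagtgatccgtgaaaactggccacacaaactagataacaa
Hjurp: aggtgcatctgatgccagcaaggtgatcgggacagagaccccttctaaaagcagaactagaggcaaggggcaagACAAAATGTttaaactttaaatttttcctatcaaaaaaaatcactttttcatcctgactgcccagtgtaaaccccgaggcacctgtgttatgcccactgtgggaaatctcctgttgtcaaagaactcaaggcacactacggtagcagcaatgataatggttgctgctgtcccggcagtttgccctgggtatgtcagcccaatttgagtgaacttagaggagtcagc
Sema4d: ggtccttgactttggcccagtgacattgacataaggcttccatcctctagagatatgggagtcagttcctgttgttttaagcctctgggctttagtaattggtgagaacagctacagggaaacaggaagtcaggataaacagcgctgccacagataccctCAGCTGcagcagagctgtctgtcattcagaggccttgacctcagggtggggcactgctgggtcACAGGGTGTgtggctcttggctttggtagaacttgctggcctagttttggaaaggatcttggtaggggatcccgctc
Zfp738: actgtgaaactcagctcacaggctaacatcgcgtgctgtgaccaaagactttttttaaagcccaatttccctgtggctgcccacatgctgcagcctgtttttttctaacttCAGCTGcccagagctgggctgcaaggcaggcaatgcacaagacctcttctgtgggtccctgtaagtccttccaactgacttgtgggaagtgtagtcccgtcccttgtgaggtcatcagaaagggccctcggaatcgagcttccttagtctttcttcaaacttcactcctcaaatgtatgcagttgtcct

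A second set of shorter stretches shows sites inside restored peaks whose nearest gene is in one of the gene lists, with the matching letters in capitals and the bases on each side in lower case. They were picked after the values were seen, from the highest-scoring list members with a motif. Pkm scored below Erg for ACANNNTGT, and Erg below Mef2c for TGANTCA. All are from the plus strand of mm10. The Erg stretch with ACANNNTGT, the half-site spacing of glucocorticoid receptor elements, is at chr16:95448209-95448248, and the one with TGANTCA, the AP-1 letters, at chr16:95448068-95448107 of the same region. The other stretches are at chr9:59653966-59654005 (Pkm, ACANNNTGT), chr6:125573797-125573836 (Vwf, the E box CAGCTG), chr13:83614497-83614536 (Mef2c, TGANTCA), chr3:32428597-32428636 (Pik3ca, the nuclear receptor half-site TGACCTTGA on the minus strand) and chr2:76847910-76847949 (Ttn, MEF2 consensus).
Erg ACANNNTGT: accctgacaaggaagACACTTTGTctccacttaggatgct
Erg TGANTCA: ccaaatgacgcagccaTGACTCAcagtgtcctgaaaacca
Pkm: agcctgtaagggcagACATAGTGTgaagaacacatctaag
Vwf: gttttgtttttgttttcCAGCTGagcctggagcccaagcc
Mef2c: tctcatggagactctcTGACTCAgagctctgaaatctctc
Pik3ca: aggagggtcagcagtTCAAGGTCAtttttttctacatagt
Ttn: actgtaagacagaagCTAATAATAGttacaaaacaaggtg

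The restored peaks split into 3 groups by the day on which they were called again. Both later lists held 1595 of them (43.6%, 42.0 to 45.2%), the day 6 list alone 1094 (29.9%, 28.4 to 31.4%) and the day 8 list alone 972 (26.6%, 25.1 to 28.0%). In all, 2689 (73.4%) were called at day 6 and 2567 (70.1%) at day 8. Of the vehicle peaks still called at day 4, 89.3% were found at day 6 and 93.9% at day 8. These shares are not like those of the restored peaks. The rule requires each restored peak to be called on at least 1 later day, and kept peaks have no such condition. As a reference for how much of the genome the later lists cover, 8.05% of all 500 bp autosomal windows that touch no day 4 peak touch a day 6 or day 8 peak, 6.58% a day 6 peak and 3.61% a day 8 peak.

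Restored peaks were short and of low score in the vehicle list, and so were vehicle peaks as a whole. The restored peaks had a median length of 500 bp, the shortest length the caller gave, as had all vehicle peaks. No longer than that were 76.3% of the restored peaks and 67.9% of all vehicle peaks. The share was 38.7% for peaks kept at day 4 and 87.0% for those absent throughout. The findPeaks score, a tag number not scaled for depth, had a median of 11 (quartiles 10 and 12). Of the restored peaks 74.9% scored 11 or less, where the lowest score of the list was 10. Over all 37614 vehicle peaks the median score and quartiles were the same, with 17319 peaks at 10 and 8939 at 11. Fold over input had a median of 10.5 (quartiles 6.81 and 17.5) for restored peaks, with a median of 1.00 input tag. The median fold was 8.03 for kept peaks, 13.1 for peaks absent throughout and 10.7 for all vehicle peaks. The share of vehicle peaks that were restored was 10.4% at a score of 10, 10.6% at 11, 10.7% at 12, 8.29% at 13, 7.94% at 14 and 3.50% at 15 or more. Over the same steps the share kept at day 4 went from 22.9% to 90.5%, so that of the peaks absent at day 4 the restored share went from 13.4% at a score of 10 to 36.9% at 15 or more.

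**Figure D1:**
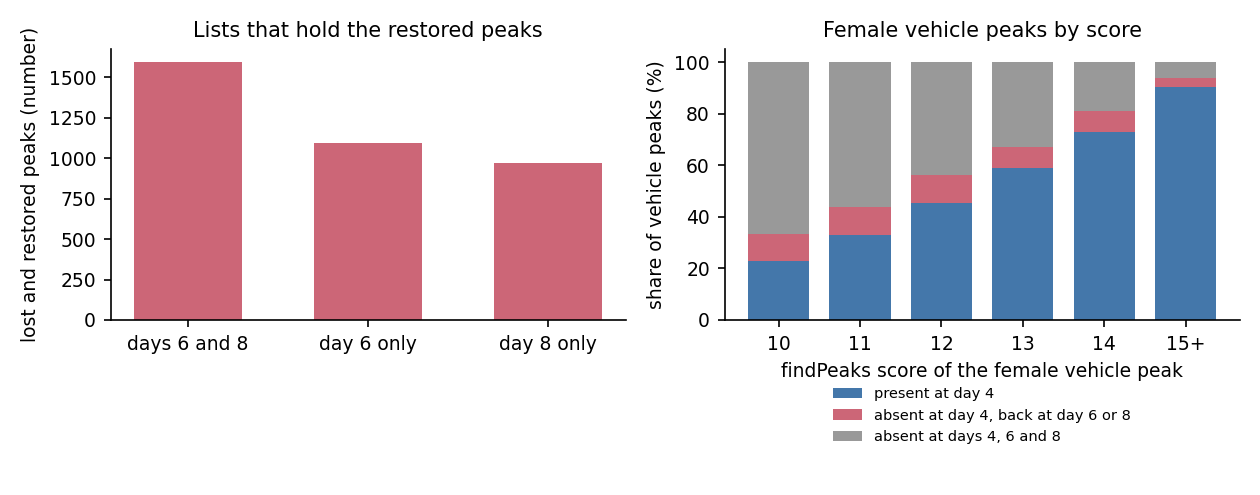
Left, number of lost and restored peaks (y axis) called at both later days, at day 6 only and at day 8 only (1595, 1094 and 972). Right, share of female vehicle peaks (y axis, %) of each fate at each findPeaks score in the vehicle list (x axis, 15+ being 15 or more); the restored share stays between 7.94 and 10.7% up to a score of 14 and is 3.50% above it.

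The depth of the day 4 list and its threshold stand beside these counts, and their part in the calls was not tested. The day 4 list was the deepest female list and had the highest lowest score, 24, against 10 in the vehicle, 11 in the day 6 and 16 in the day 8 list. Per 10 M tags the lowest score was still highest at day 4, 4.90 against 3.63 in vehicle, 3.59 at day 6 and 4.03 at day 8. The lowest normalized tag count (tags in the whole peak per 10 M tags) was highest in vehicle, 4.72, followed by 3.68 at day 4, 3.27 at day 8 and 2.61 at day 6. Of the 2795 restored peaks of exactly 500 bp, 2638 (94.4%) had a vehicle count above 5.51, the median of the 33628 day 4 peaks of that length. Most vehicle peaks of any fate lay above that value. The lower quartile of the count, over all lengths, was 7.99 for all vehicle peaks and 7.63 for both restored peaks and peaks absent throughout. The 94.4% therefore does not set the restored peaks apart. The input of the day 4 peaks of that length was higher, with a median of 3 tags against 1.00 under the 500 bp restored peaks, and the median fold over input was 4.80 against 10.7.

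Restored peaks lay nearer to day 4 peaks than the vehicle peaks absent throughout did. The median distance to the nearest one was 1930 bp (quartiles 493 and 7250 bp), against 21800 bp (6470 and 68500 bp) for the vehicle peaks absent throughout. Within 1 kb of a day 4 peak were 1395 restored peaks (38.1%, 36.5 to 39.7%), between 1 and 10 kb 1561 (42.6%) and farther than 10 kb 705 (19.3%, 18 to 20.6%). Of the peaks absent throughout, 5.76% were within 1 kb and 67.1% farther than 10 kb. The rule itself requires a day 6 or day 8 peak over each restored peak and none over the peaks absent throughout. The distance to day 4 peaks is not given here for later peaks in general or for random windows. These distances therefore do not set the restored peaks apart from other regions with a later peak. Restored peaks called at both later days were nearest, with a median of 1010 bp, followed by day 8 only with 2140 bp and day 6 only with 3480 bp. At the limit of the rule, regions near Add3, Klhl8 and Plcb4 ended 1 bp from a day 4 peak and were counted as lost, while regions near Fth1, Slain2 and Ddx59 shared 1 bp with one and were not.

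**Figure D2:**
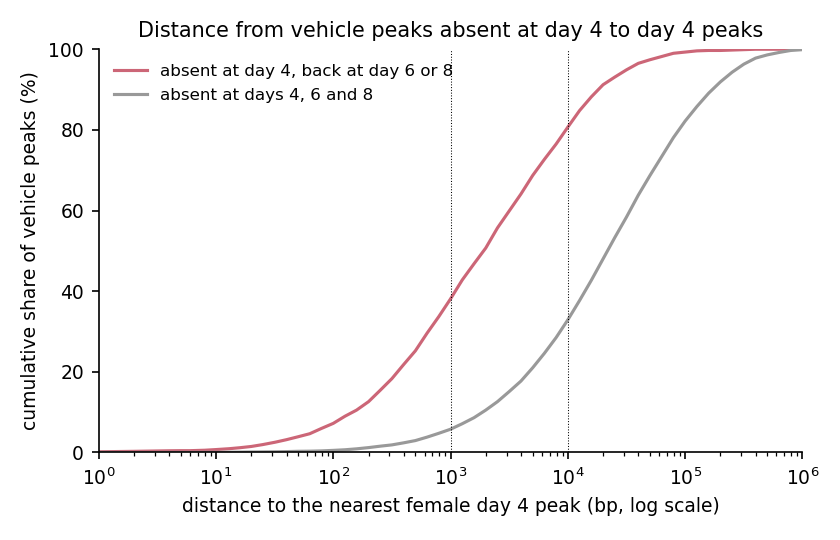
Cumulative share (y axis, %) of vehicle peaks absent at day 4 by distance to the nearest female day 4 peak (x axis, bp, log scale; dotted lines at 1 and 10 kb). The restored peaks (median 1930 bp) lie to the left of the peaks absent throughout (median 21800 bp).

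Some returns were part of a wider domain that also covered a region acetylated at day 4. The best-scoring day 6 peak over a restored region touched a day 4 peak in 961 of 2689 cases (35.7%, 33.9 to 37.6%), and the day 8 peak did so in 1031 of 2567 (40.2%, 38.3 to 42.1%). The same share over all peaks of those lists is not given here, so these values do not set the restored regions apart. Taking both days, 1354 restored regions (37.0%) were joined in this way to a day 4 peak, at a median distance of 353 bp, by later peaks with median lengths of 3300 bp at day 6 and 2810 bp at day 8. The remaining 2307 (63.0%, 61.4 to 64.6%) returned under peaks that touched no day 4 peak, with median lengths of 714 and 690 bp and a median distance of 4900 bp, and 728 of them did so at both days. Over all restored regions the later peaks had median lengths of 1300 bp on either day, against 649 and 681 bp for all peaks of those lists, and median folds over input of 5.65 at day 6 and 9.86 at day 8, against 5.03 and 9.93. The later peaks over kept regions were longer, with medians of 2920 and 3140 bp, and of higher fold, 12.1 and 14.5. The later peak covered the whole vehicle peak for 37.1% at day 6 and 37.8% at day 8.

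The 705 restored regions farther than 10 kb from any day 4 peak were called on both later days less often (27.5%) than those within 1 kb (56.8%), were more often intergenic (38.9% against 21.0%) and lay farther from starts (median 43.0 kb against 15.9 kb), with a median vehicle score of 10 and a median fold of 10.7. The highest-scoring of them called on both days, picked after their values were seen, included a promoter region of Sh2b2, an insulin receptor adaptor gene (chr5:136245145-136245645), 13619 bp from a day 4 peak, with a normalized tag count of 14.5 in vehicle (9.73-fold), 133 at day 6 (21-fold) and 45.6 at day 8 (9.88-fold). A region 30 kb past the start of Tiparp, a target gene of the aryl hydrocarbon receptor (chr3:65558181-65558681), 25125 bp from a day 4 peak, had 9.45 in vehicle (12.6-fold), 17.3 at day 6 (5.21-fold) and 11.6 at day 8 (13.8-fold).

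The centers of restored peaks were mostly in introns or intergenic sequence (90.9%), as were those of all vehicle peaks (85.7%). Introns held 64.9% (63.3 to 66.4%), intergenic sequence 26.0% (24.6 to 27.4%), exons 3.99%, the 1000 bp before to 100 bp after a start 3.25% (2.72 to 3.88%) and gene ends 1.88%. The intron share was higher than among kept peaks (53.2%) and peaks absent throughout (44.2%), and the intergenic share lay between theirs (16.4% and 51.8%). Over all vehicle peaks the intron share was 49.6%, the intergenic share 36.1% and the promoter share 8.90%. The median distance to the nearest protein-coding start was 22.5 kb, against 4.72 kb for kept peaks and 73.6 kb for peaks absent throughout. It was 29.2 kb over all vehicle peaks, so restored peaks lay somewhat nearer to starts than vehicle peaks as a whole. Base composition lay between the same groups, with a median GC content of 45.5% against 49.1% and 39.9%. The nearest protein-coding gene had a day 4 peak within 1 kb of a start for 80.0% of the restored peaks (78.7 to 81.2%), for 92.5% of the kept ones, for 55.3% of those absent throughout and for 71.6% of all vehicle peaks.

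**Figure D3:**
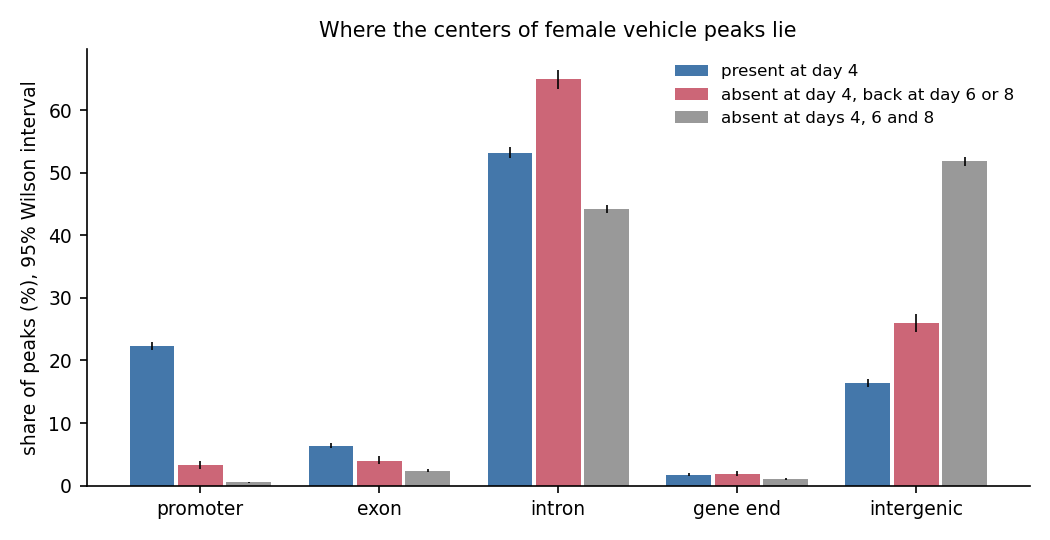
Share of female vehicle peaks (y axis, %) by the place of their center (x axis), for peaks kept at day 4, lost and restored, and absent throughout, with 95% Wilson intervals as error bars. Restored peaks have the tallest intron bar (64.9%) and a promoter bar of 3.25% against 22.3% for kept peaks.

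Only 29 restored peaks (0.792%, 0.552 to 1.14%) spanned a protein-coding start, against 20.2% of kept peaks and 7.68% of all vehicle peaks. This share moved with the processing: with every list cut to its highest-scoring peaks, as many as in the shortest list of its sex, it was 9.37% and so above the 7.68%, with a fold over input of at least 4 in every list 2.89%, and with 50% of the vehicle peak covered as the rule of presence 1.57%. Of the 29, 21 were called at both later days, 22 were more than 1 kb and 10 more than 10 kb from any day 4 peak, and 15 (51.7%, 34.4 to 68.6%) were in the male vehicle list, 3 (10.3%) in the male day 4 list, 5 (17.2%) in the male day 6 list and 5 in the male day 8 list. Of all 2888 female vehicle peaks that span a start, the same lists held 2744 (95%), 74.2%, 80.8% and 83.5%.

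The named start-spanning regions with the highest scores covered genes of several kinds. Counts below are normalized tag counts of the whole peak, and since peak lengths differ each is followed by the fold over input. Count and fold did not always move the same way. The region at Sema4d (chr13:51756160-51756932), whose product is a semaphorin, had 18.5 in vehicle at a fold of 4.13, no day 4 peak within 2601 bp, 98.3 at day 6 (5.17-fold) and 37.0 at day 8 (29.4-fold). The start of Zfp738 (chr13:67683030-67683530), a zinc finger gene, had 10.9 in vehicle (3.65-fold), 47.0 at day 6 (7.79-fold) and 22.7 at day 8 (27-fold), with the nearest day 4 peak at 40371 bp. Both regions were thus called with a fold over input that was higher on the later days than in vehicle. The shared start region of Aida and Brox (chr1:183296602-183299994) was the one with the most input: its vehicle count was 305 at a fold of 2.17 over 188 input tags, it had no day 4 peak within 830 bp, and its later counts were 316 (69.8-fold) and 134 (63.8-fold). It was called in each of the 4 male lists. Input tags at day 4 are known only under the day 4 peaks, so its absence there could not be set against the input of that day.

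Fancg, of the Fanconi anemia DNA repair complex, had a start region (chr4:43010016-43010516) with 9.81 in vehicle (6.57-fold), 47.0 at day 6 (9.74-fold) and 24.4 at day 8 (19.4-fold), and its nearest day 4 peak was 8469 bp away. The start of Slu7, a splicing factor gene, went from 10.5 (3.53-fold) in vehicle to 37.2 (61.7-fold) at day 6 and 17.6 (42.0-fold) at day 8. Zfp791 had 12.4 (3.31-fold), 25.5 (14.1-fold) and 16.6 (6.60-fold). Filip1, which encodes a filamin-binding protein, had 23.6 (6.32-fold), 89.1 (5.28-fold) and 34.0 (5.79-fold), so that its fold did not rise with its count. Limd2, which encodes a LIM domain protein, had 9.81 (6.57-fold), 265 (8.52-fold) and 67.7 (11.5-fold) under later peaks of 9184 and 4300 bp. These 5 regions were called on both later days. The starts of Casp12, a caspase gene, and Myct1 were called at day 8 only, with 13.4 (36-fold) and 6.54 (8.76-fold) in vehicle and 15.9 (18.9-fold) and 17.6 (84-fold) at day 8. Among the others, chosen after their values were seen, were the start of Fbxo40, the gene of a muscle F-box protein, with 9.08 in vehicle (24.3-fold) and 8.81 at day 8 (21-fold), and that of the mitochondrial ribosomal protein gene Mrpl19, with 11.3 (15.1-fold), 46.7 at day 6 (11.9-fold) and 15.1 at day 8 (18-fold).

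The 10 highest-scoring regions called at both later days had vehicle scores of 16 to 26. The region in Mroh2a (chr1:88232429-88233060, score 26) had 19.3 in vehicle, 67.3 at day 6 and 1070 at day 8, where a single peak of 37765 bp lay over it, but its folds over input were 5.16, 2.01 and 3.26. The Hjurp region (chr1:88262696-88264041), in the gene of the centromeric histone chaperone, lay under that same day 8 peak and had folds of 4.23, 2.40 and 3.26. Both are therefore regions where input tags were high as well. The region 0.386 kb before the start of Llgl1 (chr11:60698988-60699640), a cell polarity gene, had 12.4 in vehicle (8.27-fold), no day 4 peak for 141 bp, 651 at day 6 under a peak of 12865 bp (13.6-fold) and 70.0 at day 8 (10.4-fold).

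The introns of Arid1b, a chromatin remodeling subunit gene, and Rasgrf2, a Ras exchange factor gene, held regions with 9.08 (12.2-fold) and 20 (6.69-fold) in vehicle, 19.9 (4.13-fold) and 50.6 (7.99-fold) at day 6 and 6.80 (5.40-fold) and 31.7 (18.9-fold) at day 8. The fold was thus lower than in vehicle on both later days in Arid1b and higher in Rasgrf2. Lrrc8c, a volume-regulated anion channel gene, had 9.08 (4.05-fold), 120 (14.2-fold) and 66.5 (7.92-fold) in a region 0.732 kb before its start. Creb5, of the CREB and ATF factors, had 10.5 (3.53-fold), 31.0 (6.43-fold) and 26.9 (9.18-fold) in a region 0.406 kb before its start, 1236 bp from a day 4 peak. The intron regions of Wdr95 and Ptprr, a tyrosine phosphatase gene, had 14.9 (39.9-fold), 8.49 (7.03-fold) and 10.1 (4.80-fold), and 13.8 (37.0-fold), 14.7 (9.74-fold) and 14.6 (2.18-fold), so that both had their highest fold in vehicle. Near Gm7827 the region was 118828 bp from any day 4 peak and had folds of 5.07, 2.08 and 2.45. Of these 10 regions 6 were in the male vehicle list and 4 in the male day 6 list. Those lists held 29.3% and 25.0% of all female vehicle peaks. At a vehicle score of 15 or more, the male vehicle list held 31.9% of restored and 90.5% of kept peaks. So few regions do not show a difference from these shares.

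Vehicle peaks nearest to sarcomere and calcium handling genes were mostly kept at day 4, where 14031 of all 37614 were kept. Of 178 vehicle peaks nearest to 39 sarcomere genes, 15 (8.43%, 5.17 to 13.4%) were restored, 124 kept and 39 absent throughout, which is close to the 9.73% over all vehicle peaks. Myh4, the gene of fast myosin heavy chain 2B, had a region (chr11:67241966-67242607) with 17.4 in vehicle (23.4-fold), no day 4 peak for 486 bp, 38.9 at day 6 (3.68-fold) and 340 at day 8 (8.35-fold) under a peak of 18736 bp. Myl1, a fast myosin light chain gene, and Myot, the gene of the Z-disc protein myotilin, had regions called at day 8 only, with 11.3 (15.1-fold) and 10.2 (27.2-fold) in vehicle and 35 (7.59-fold) and 67 (5.15-fold) at day 8, at 176 and 347 bp from day 4 peaks. For calcium handling 16 of 124 (12.9%, 8.10 to 19.9%) were restored, 75 kept and 33 absent throughout. Trdn, the gene of the junctional protein triadin, had a region 56.5 kb before its start with 20.7 in vehicle (4.62-fold) and 13.9 at day 8 (16.5-fold), 54101 bp from a day 4 peak, and one within the gene with 24 (64.2-fold) and 8.31 (39.6-fold). Stac3, an excitation-contraction coupling gene, was nearest to one in an intron of R3hdm2, 13.5 kb before its start, with 14.9 in vehicle (9.97-fold) and 94.7 at day 8 (11.9-fold). The myosin, myotilin and inner triadin regions thus had a lower fold on the later days than in vehicle.

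Among myogenic regulators 20 of 199 vehicle peaks were restored (10.1%, 6.60 to 15%), 94 kept and 85 absent throughout. Of the restored ones, 6 were nearest to Sox6, a repressor of slow fiber genes, and 3 to Mef2c. Within the Mef2c intron one region (chr13:83614151-83614651, the one printed above) had 13.8 in vehicle (37.0-fold) and 6.20 at day 6 (3.43-fold) and no day 8 peak. A second of the 3 Mef2c regions had 19.6 (5.25-fold) in vehicle, 73.8 (18.8-fold) at day 6 and 43.3 (9.39-fold) at day 8, and was called in the male day 4 and day 8 lists. The Sox6 region with the highest score was 25913 bp from a day 4 peak and had 12 in vehicle (32.1-fold) and 6.30 at day 8 (30-fold).

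For the glucocorticoid response 22 of 200 vehicle peaks nearest to 29 genes (11%, 7.38 to 16.1%) were restored, nearest to 12 genes. Fkbp5, the gene of a receptor co-chaperone and a textbook glucocorticoid target, had an intron region (chr17:28448054-28448685) with 15.3 in vehicle (40.9-fold), no day 4 peak for 712 bp, 29.7 at day 6 (5.47-fold) and 42.8 at day 8 (11.3-fold). Klf9, a transcription factor gene, had a region 74.5 kb before its start with 11.3 (7.54-fold), 11.1 (9.20-fold) and 32.7 (13-fold). In both, the tag count was highest at day 8, while the fold was highest in vehicle for Fkbp5 and at day 8 for Klf9.

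Nr3c1, which encodes the glucocorticoid receptor itself, had 7 restored regions, more than any other gene of the list. Of 26 vehicle peaks nearest to it, 10 were kept and 9 absent throughout. The 7 scored 10 to 12 in vehicle and lay 556 to 14700 bp from day 4 peaks, and 3 of them were within the gene (chr18:39410545-39519421, minus strand). The region 39.6 kb before the nearest start (chr18:39558624-39559331) had 12.7 in vehicle (34.0-fold), 61.7 at day 6 (5.24-fold) and 21.7 at day 8 (6.45-fold). A second one called on both days, 62.9 kb before that start (chr18:39582106-39582606), had 7.27 (9.73-fold), 31.7 (9.54-fold) and 9.07 (10.8-fold) and was 14670 bp from a day 4 peak. The third, within the gene and 58.5 kb past the nearest start (chr18:39430507-39431007), had 8.72 (5.84-fold), 21.2 (5.41-fold) and 27.4 (32.7-fold). Of the other 4, 3 were called at day 6 only and 1 at day 8 only. Of the 7, 2 were in the male vehicle list and 0 in the other male lists. Of all female vehicle peaks, 29.3% were in the male vehicle list and 14.5%, 25.0% and 19.3% in those of days 4, 6 and 8. The start of Nr3c1 had a peak in each of the 8 lists.

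**Figure D4:**
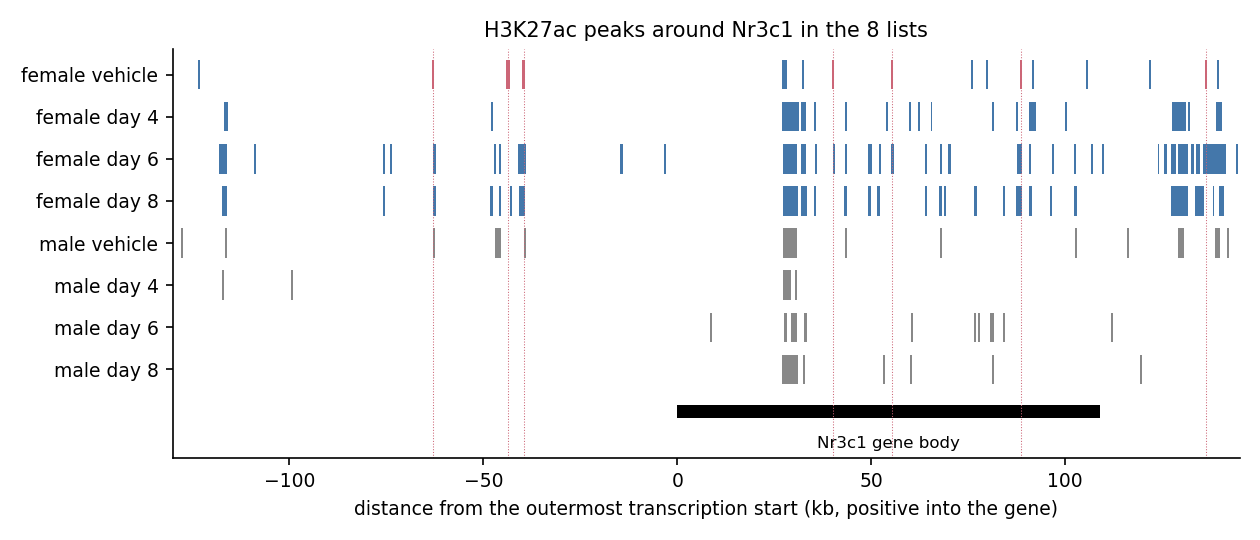
H3K27ac peaks (boxes) of the 4 female and 4 male lists (y axis) by distance from the outermost Nr3c1 start (x axis, kb, positive into the gene), with the black bar as gene body and lost and restored vehicle peaks in red with dotted lines. The dotted lines cross no day 4 box, while the tall block of peaks about the inner start is present in all 8 lists.

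Genes of insulin and IGF1 signaling had 21 restored regions of 150 vehicle peaks (14%, 9.34 to 20.5%), nearest to 15 of 29 genes. Irs1, an insulin receptor substrate gene, had an intron region with 9.81 in vehicle (26.3-fold) and 44.8 at day 8 (13.4-fold), and Pik3ca, the gene of a catalytic PI3K subunit, one with 11.3 (30.2-fold) and 16.4 (4.88-fold). Neither was called at day 6. The Irs2 region, in a neighboring gene 30.5 kb before its start, had 10.9 (14.6-fold), 13.1 (4.81-fold) and 5.29 (4.20-fold). In lipid metabolism 15 of 171 (8.77%, 5.39 to 14%) were restored, among them regions nearest to Ppargc1b, Acacb and Ucp3. The region of Ppargc1b, a coactivator of oxidative metabolism, had 8.36 (11.2-fold), 15.7 (4.72-fold) and 12.6 (10-fold). That 1.94 kb before the start of Acacb, whose product makes malonyl-CoA at mitochondria, had a count that went from 7.63 to 31.7 and 66.0 under peaks of 500, 2348 and 3618 bp, and a fold that went from 20.4 to 2.69 and 6.55. That nearest to Ucp3, a mitochondrial carrier gene, lay in an intron of C2cd3 and had 9.45 (25.3-fold), 311 (11-fold) and 659 (20.7-fold) under later peaks of 6750 and 17563 bp. In all 3 the count was higher and the fold lower on the later days than in vehicle.

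Glucose metabolism had 11 of 121 (9.09%, 5.15 to 15.5%) and the circadian clock 8 of 89 (8.99%, 4.63 to 16.7%). Gpi1 and Pkm, of glycolysis, had 14.2 (4.74-fold) and 13.4 (9-fold) in vehicle, 44.7 (7.41-fold) and 9.80 (8.12-fold) at day 6 and 408 (8.45-fold) and 474 (14.9-fold) at day 8, where the peaks were 17102 and 16406 bp long. Pfkm, the muscle phosphofructokinase gene, was nearest to a region in an intron of Senp1 that had 13.8 in vehicle (6.16-fold) and 154 at day 8 (40.8-fold). For the clock, the Cry1 intron region had 13.4 (3.6-fold), 14.4 (7.94-fold) and 11.6 (5.52-fold), the Hlf one 10.2 (6.81-fold), 5.88 (3.90-fold) and 6.55 (15.6-fold), and a region in an intron of Itpr1, 156 kb before the start of Bhlhe40, 8.72 (23.4-fold) and 11.1 (5.26-fold) at day 6 only. For each of these 8 lists the interval of the restored share includes the 9.73% of all vehicle peaks, and no restored region of these lists spanned a start. A vehicle peak nearest to a gene is not shown to act on it.

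The label names isolated myofibers, and 12 of 14 myofiber markers had a vehicle peak within 1 kb of a start, missing at Myh1 and Myh2, with 13 of 14 in each later female list. More starts had a peak in each later female list, day 4 included, than in vehicle: over all 20021 protein-coding genes the vehicle list had one for 30.3%, the day 4 list for 55.4%, the day 6 list for 71.2% and the day 8 list for 63.7%. Markers of other cells were among them, and their part in the result was not tested. Endothelial starts with a peak went from 6 of 12 in vehicle to 10 at day 4 and 12 at days 6 and 8, and their summed tag count from 104 to 691, 4280 and 1560. Fibro-adipogenic starts went from 3 of 11 to 7, 9 and 10 (22.9, 97.2, 961 and 448), smooth muscle and pericyte starts from 2 of 9 to 5, 9 and 9 (46.5, 94.9, 1550 and 447), and macrophage and immune starts from 0 of 12 to 2, 6 and 4 (0, 34.9, 379 and 61.0). Satellite cell starts numbered 1, 5, 4 and 6 of 7, Schwann cell starts 3, 4, 6 and 5 of 6, and adipocyte starts 0, 1, 2 and 3 of 7. The myofiber sum moved in the same order, 557, 2060, 8190 and 6340. Of the macrophage and immune markers, Adgre1, Cd52, Cx3cr1, Itgam, Lyz2 and Ptprc had no start peak in any female list. Cd14 and Cd68 had one at days 4, 6 and 8, Csf1r and Laptm5 at days 6 and 8, and C1qa and Mrc1 at day 6. Of the adipocyte markers, Adipoq, Lep and Retn had none, while Fabp4 had one at days 4, 6 and 8, Cidec at day 6, and Cfd and Plin1 at day 8. In chromatin of many cells, a shift in cell types and a change of acetylation per cell cannot be told apart.

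Restored regions whose nearest start was that of a marker were few in number, and some lay far from it. Endothelial markers had 8 of 44 vehicle peaks (18.2%, 9.51 to 32.0%), 4 of them at Flt1, a VEGF receptor gene. The Erg region (chr16:95447887-95448387), in the gene of an endothelial transcription factor, had 9.08 in vehicle (24.3-fold), 202 at day 6 (8.39-fold) and 90.2 at day 8 (13.4-fold). Vwf, the gene of von Willebrand factor, had 11.3 (7.54-fold), 56.5 (6.24-fold) and 34.2 (40.8-fold) and was 20361 bp from a day 4 peak, and Flt1 had 10.2 (6.81-fold), 25.5 (3.84-fold) and 37.0 (5.19-fold). Fibro-adipogenic markers had 7 of 34 (20.6%, 10.3 to 36.8%), with a region 52.8 kb before the start of Fbn1 at 9.81 (26.3-fold), 29.1 (4.01-fold) and 18.1 (10.8-fold), Col3a1 at 6.54 (8.76-fold) and 4.28 at day 8 only (20.4-fold), and the decorin gene Dcn at 8.36 (22.4-fold), 8.16 (3.01-fold) and 8.81 (3-fold). The endothelial interval includes the 9.73% of all vehicle peaks, and the fibro-adipogenic one, 1 of 16 such intervals, starts just above it. Smooth muscle and pericyte markers had 3 of 12 (Acta2, Pdgfrb and Kcnj8), macrophage and immune markers 2 of 17 (Mrc1 and Laptm5), Schwann cell markers 2 of 11 (Egr2 and Pmp22), satellite cell markers 2 of 20 (both nearest to Cdh15), myofiber markers 5 of 43 and adipocyte markers 0 of 4.

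The male lists took no part in choosing the regions, and they allow a comparison that the rule did not fix. The male vehicle list held 759 of the 3661 restored peaks (20.7%, 19.4 to 22.1%), against 70.4% of kept peaks, 1.89% (1.71 to 2.09%) of peaks absent throughout and 29.3% of all female vehicle peaks. The share was above that of the peaks that did not return, but its place against all vehicle peaks turned with the processing: with lists of equal length it was 20.6% against 15.1%, and with a fold over input of at least 4 in every list 22.6% against 21.7%. At one and the same vehicle score the order was kept: at a score of 10 the male vehicle list held 19.7% (17.9 to 21.6%) of restored, 58.1% of kept and 1.86% of never restored peaks, and at 15 or more 31.9% (23.4 to 41.9%), 90.5% and 1.24%. Regions restored at both days were in the male vehicle list more often (33.4%, 31.1 to 35.8%) than those of day 6 only (13.3%, 11.5 to 15.5%) or day 8 only (8.23%, 6.66 to 10.1%). Those joined to a day 4 peak were there in 28.1% (25.7 to 30.5%) and those that stood alone in 16.4% (15 to 18%). Those that stood alone on both later days were there in 28.2% (25.0 to 31.5%), close to the joined ones.

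After prednisone the male lists as deposited held fewer of the restored peaks. At day 4 they numbered 84 (2.29%, 1.86 to 2.83%), at day 6 484 (13.2%, 12.2 to 14.4%) and at day 8 141 (3.85%, 3.27 to 4.52%), where the shares over all female vehicle peaks were 14.5%, 25.0% and 19.3%. The male day 4 list is the shallowest (7.52 M tags) and shortest, and with every list cut to the length of the shortest of its sex the order was another: the restored shares were 18.4% at day 4, 29.2% at day 6 and 23.9% at day 8, each above the 14.5%, 20.4% and 17.7% of all vehicle peaks. With a fold of at least 4 the day 6 share alone was above that of all vehicle peaks, 21.8% against 14.8%, while day 4 had 6.65% against 13.5% and day 8 8.52% against 12.1%. Of the 759 peaks in the male vehicle list, 34 (4.48%, 3.22 to 6.19%) were in the male day 4 list, against 45.9% of all female vehicle peaks found in the male vehicle list, and with lists of equal length 48.7% against 57.2%. Of the other 725, 144 (19.9%, 17.1 to 22.9%) were in the male day 6 or day 8 list, against 60.1%, and this was 58.9% against 66.2% with lists of equal length and 38.6% against 49.2% with a fold of at least 4. The course of vehicle, day 4 and later lists that defined the regions in females was met in full in males by 144 of 3661 restored peaks (3.93%, 3.35 to 4.61%), against 9.52% of all female vehicle peaks. No male list held 2440 of the restored peaks (66.6%, 65.1 to 68.2%), against 62.7% of all female vehicle peaks, and 1221 (33.4%) were in at least 1, against 37.3%. These directions turned too: the full course was met by 6.23% against 4.29% with lists of equal length and by 7.51% against 5.45% with a fold of at least 4, and the share in at least 1 male list was 45.6% against 29.9% and 42.9% against 32.3%.

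**Figure D5:**
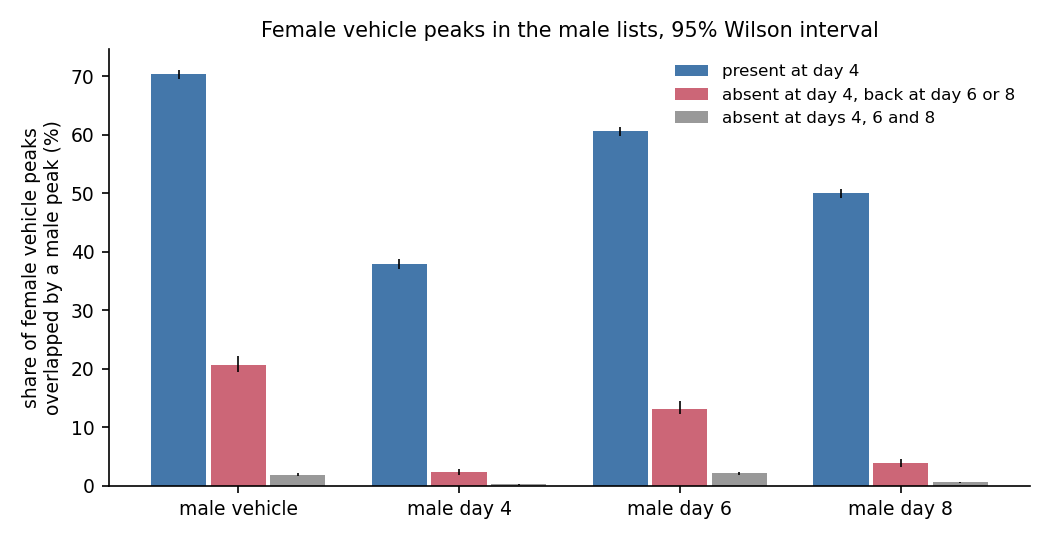
Share of female vehicle peaks (y axis, %) that a peak of each male list overlaps (x axis), for peaks kept at day 4, lost and restored, and absent throughout, with 95% Wilson intervals as error bars. In each male list the restored bar lies between the other two, from 20.7% in the vehicle list to 2.29% at day 4.

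Letters of known elements were counted in the central 300 bases. The glucocorticoid receptor spacing ACANNNTGT was present in 407 restored peaks (11.1%, 10.1 to 12.2%), against 8.30% of kept peaks, 11.3% of peaks absent throughout, 10.2% of all vehicle peaks and 6.85% of 32851 RefSeq promoters of that length. The E box CAGCTG was in 596 (16.3%, 15.1 to 17.5%), close to kept peaks (16.8%) and above peaks absent throughout (10.7%, 10.3 to 11.2%), with 13.5% over all vehicle peaks and 16.3% of the promoters. It was in 18.9% (17.1 to 20.9%) of regions restored at both days, 16.5% (14.5 to 18.9%) of those of day 6 only and 11.6% (9.76 to 13.8%) of those of day 8 only. The median GC content of these regions was 47.1, 45.9 and 42.5% in the same order. TGANTCA was in 9.34%, TGACCTTGA in 0.847% and the MEF2 consensus in 0.792% (0.552 to 1.14%), where all vehicle peaks had 9.49%, 0.763% and 0.994% and the promoters 7.81%, 0.423% and 0.557%. TGACCTTGA was searched on both strands, and the other letters read the same on both. GC content differed between the groups as given above, and its part in these shares was not tested. A match is not evidence of binding.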

How the data were processed

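The authors' methods name homerTools for adaptor removal, Bowtie2 (2.2.6 in the submitters' processing notes) for alignment to mm10, and HOMER findPeaks in histone style, run against the input with a lowest fold of 2. Whether libraries were merged before calling is not given in the sources used here. The deposited normalized tag count is a signal, the tags in a peak scaled to 10 M tags, and the input tags are a deposited signal too. The deposited findPeaks score is not scaled for depth, and the deposited fold is the ratio to input. The deposited p-values were not used.

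Overlaps of at least 1 bp, distances and coverage were computed in Python 3.11.15 with pandas 2.3.3 and checked against bedtools 2.31.1 on simulated lists. The mm10 coordinates were annotated with 43783 curated RefSeq transcripts (GRCm38.p6) of the 19 autosomes. A later peak stands for the highest-scoring overlapping peak. The depth was recovered from steps of the normalized tag count, since low values were whole multiples of 1 tag within 0.006. Intervals are 95% Wilson intervals.

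Named regions had under 50% soft-masked bases and were ranked by vehicle score: the 10 highest called at both later days, the 10 highest spanning a start, and the 3 highest per gene list. The regions and gene lists were chosen with earlier results of these data known. Alternatives were another overlap, a 1000 bp margin, a fold of at least 4, lists of equal length, repeats left out and, chosen after seeing the data, later peaks that touch no day 4 peak. Sex chromosomes were left out.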

Additional observations from a re-analysis of the deposited data

How the results depend on the processing

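The number of lost and restored peaks was 3661 and ran from 2539 to 5471 over the 6 alternatives, within 1.5 times. The restored share of the peaks absent at day 4 (15.5%) was 14.2% when 50% of the vehicle peak had to be covered, 19.3% when a peak within 1000 bp counted as present, 21.3% with a fold over input of at least 4 and 10.8% when later peaks that touch a day 4 peak were left out, the last chosen after seeing the data. The intergenic or intronic share (90.9%) was 89.6%, 92.5% and 89.0% under the first 3 of these and 80.2% with lists of equal length. The last is below the 85.7% of all vehicle peaks, while the 90.9% is above it. The share that spans a start (0.792%) was 1.57% with 50% covered, 2.89% with a fold of at least 4 and 9.37% with lists of equal length. The share in the male vehicle list (20.7%) was 17.7% with 50% covered, 25.8% with the 1000 bp margin, 22.6% with a fold of at least 4 and 17.6% without the joined later peaks, and in each of the 6 it lay between those of kept peaks and of peaks absent throughout, but it was above that of all vehicle peaks with a fold of at least 4 and with lists of equal length. The share in the male day 4 list (2.29%) was 6.65% with a fold of at least 4, 18.4% with lists of equal length and 1.42% without the joined later peaks. Leaving out peaks with 50% or more soft-masked bases kept each of these shares within its interval. The causes were not tested. No paired analysis was possible because each group has 1 list that does not separate its 2 libraries, and for the same reason no library could be left out. The depth of the lists ran from 7.52 M to 50.5 M tags, and its part in which weak peaks they hold was not tested.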

Other observations

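Some genes were nearest to many lost and restored peaks; these were picked after their values were seen. The 3661 regions were nearest to 2661 protein-coding genes, 2012 of them with 1 region, 649 with 2 or more and 22 with 5 or more. Ablim1, the gene of an actin-binding LIM protein, had 10 of its 25 vehicle peaks restored, 13 kept and 2 absent throughout, and 8 of the 10 were called on both later days. A run of 3 neighboring Ablim1 regions (chr19:57193925-57195727, chr19:57200676-57201176 and chr19:57202262-57202762) had 25.8 (8.63-fold), 6.54 (17.5-fold) and 6.54 (17.5-fold) in vehicle, with day 4 peaks 18 to 291 bp away. All 3 lay under 1 day 6 peak of 20213 bp (570, 8.01-fold) and 1 day 8 peak of 10112 bp (185, 10-fold). The fold was thus lower than in vehicle on both later days in the last 2 regions. In the first it was lower at day 6 and higher at day 8. Nfia, a nuclear factor I gene, had 9 of 39 restored, all within the gene, and Klf7, a Krüppel-like factor gene, and Trib2, a pseudokinase gene, had 7 of 23 and 7 of 33. Of these, 5 lay within Klf7 and 2 within Trib2, and the others up to 187 and 372 kb from the start. Ctnnb1, the gene of beta-catenin, had 7 of 12 restored and 2 kept, but only 1 of the 7 was within the gene and the others lay up to 155 kb away. It was the one of these genes with no day 4 peak within 1 kb of a start, in females and in males, while the female vehicle, day 6 and day 8 lists and the male vehicle list had one. The male day 6 and day 8 lists had none there either. Its region 0.978 kb into the gene (chr9:120934306-120934806) had 4.72 in vehicle (12.6-fold), no day 4 peak for 723 bp, 70.2 at day 6 (12.2-fold) and 84.4 at day 8 (14.4-fold).

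The restored peaks of the highest vehicle score were clustered. Of the 20 highest, 9 lay on chromosome 1 between 88211375 and 88299935, about Ugt1a1, Mroh2a and Hjurp, where 13 were found in all. Their folds over input ran from 2.30 to 10.2 and their input tags from 1.0 to 42.0, where the median over all restored peaks was 1.00. Each of the 8 lists had peaks there, 5 to 19 in number with median folds of 2.16 to 4.17. The highest score of all, 96, belonged to a region in an intron of Sfi1 (chr11:3186536-3187443) with 67 input tags at a fold of 2.87. By chromosome, the restored share of vehicle peaks ran from 6.66% on chromosome 3 to 11.7% on chromosome 11.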
